A study of Mus musculus with 16 samples.

Results

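The 44 genes described here encode scaffold and adhesion proteins of the postsynaptic side of the synapse and proteins that store, dock and release synaptic vesicles on the presynaptic side. They were chosen by gene name, with 17 postsynaptic and 27 presynaptic members, and all 44 were found among the 22880 gene rows of the deposited tables. RNA was sequenced from the cortex of individual mice of an F1 cross between C57Bl6/J and Sv129. The mice were BK knockouts, which lack the BK calcium- and voltage-activated potassium channel, or their wild type littermates. Some mice of each genotype were undisturbed (baseline), and the others were sleep-deprived by gentle handling, which began at light onset and lasted 4 h. Every cortex was taken at zeitgeber time 4. WT_BL and WT_SD stand for undisturbed and sleep-deprived wild type mice, KO_BL and KO_SD for the knockouts, each with 4 animals, and a number after the group marks 1 library. The sources used here do not describe how the BK gene was disrupted or in which cells, and the cortex was not divided into regions or cell types.

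At a chemical synapse a vesicle is filled with transmitter by a vesicular transporter, tethered at the active zone by large scaffold proteins, and fused with the membrane by a complex of SNARE proteins when calcium binds a synaptotagmin. Across the cleft, membrane-associated guanylate kinases (the Dlg genes), the SAPAP proteins that bind them (the Dlgap genes) and the Shank proteins form the layers of the postsynaptic density at excitatory synapses, and neuroligins and LRRTM proteins bind presynaptic neurexins. Prolonged wakefulness and sleep are known to change the molecular makeup of cortical synapses, and the comparison of undisturbed with sleep-deprived cortex asks which of these genes change at the RNA level within 4 h. The comparison of the genotypes asks whether the loss of the BK channel alters them.

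The labels describe the samples as individual animals, so the p-values measure the spread between animals. Each comparison was deposited in a sheet normalized on its own; wild type counts are given from the wild type sheet and knockout counts from the knockout sheet, and the same library was scaled alike in its sheets to within 0.229%. Camk2a and Tbr1, markers of cortical excitatory neurons, were present in every library, with at least 45500 and 2483 counts. Depth ran from 8763833 recovered reads in KO_BL 1 to 30504917 in KO_SD 2. The KO_SD libraries varied most: the median coefficient of variation of the 44 genes was 19.6% in KO_SD, against 10.3% in WT_BL, 12.5% in WT_SD and 10.9% in KO_BL, and over all genes KO_SD was also the most variable group (10.8% to 12.5% in the others). KO_SD 4 held the lowest of the 16 counts for 14 of the 44 genes, among them all 5 active zone genes, and the highest for 5. KO_SD 1 held the lowest count for 9 and the highest for 10. Over all genes tested KO_SD 4 was the lowest for 20.1% and the highest for 21.8%, and KO_SD 1 for 18.6% and 18%. Kcnma1, the gene of the BK pore, averaged 1534 ± 356 counts in undisturbed and 1106 ± 339 in sleep-deprived wild type mice, and 1807 ± 351 and 1087 ± 671 in the knockouts (SD, n = 4). Its level did not separate the genotypes, and a count over the whole gene does not check for a deletion within it.

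The 44 genes covered a wide range of abundance. Levels per gene length, as deposited in FPKM (fragments scaled by transcript length and library size), ran from 1361 ± 85.5 for Vamp2 (SD over 16 libraries), a SNARE protein of the vesicle membrane, down to 2.98 ± 1.11 for Syn3, the least abundant synapsin. Snap25, the SNARE protein of the plasma membrane, followed at 1325 ± 99.9 and the vesicle protein gene Syp at 1219 ± 105, and Vamp2 and Snap25 differed by less than their SD. Of the 10 most abundant members 9 were presynaptic. The exception was Dlg4, which encodes the main scaffold protein of excitatory synapses (PSD-95), at 671 ± 74.7 FPKM and next to Syt1, the calcium sensor of fast release, at 679 ± 49.0. The median level was 64.1 FPKM for the postsynaptic and 107 for the presynaptic genes, against 11.8 over all genes tested. The least abundant members were Syn3, Slc17a6 at 8.09, Nlgn1 at 13.5 and Rims2 at 16.4 FPKM.

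**Figure D1:**
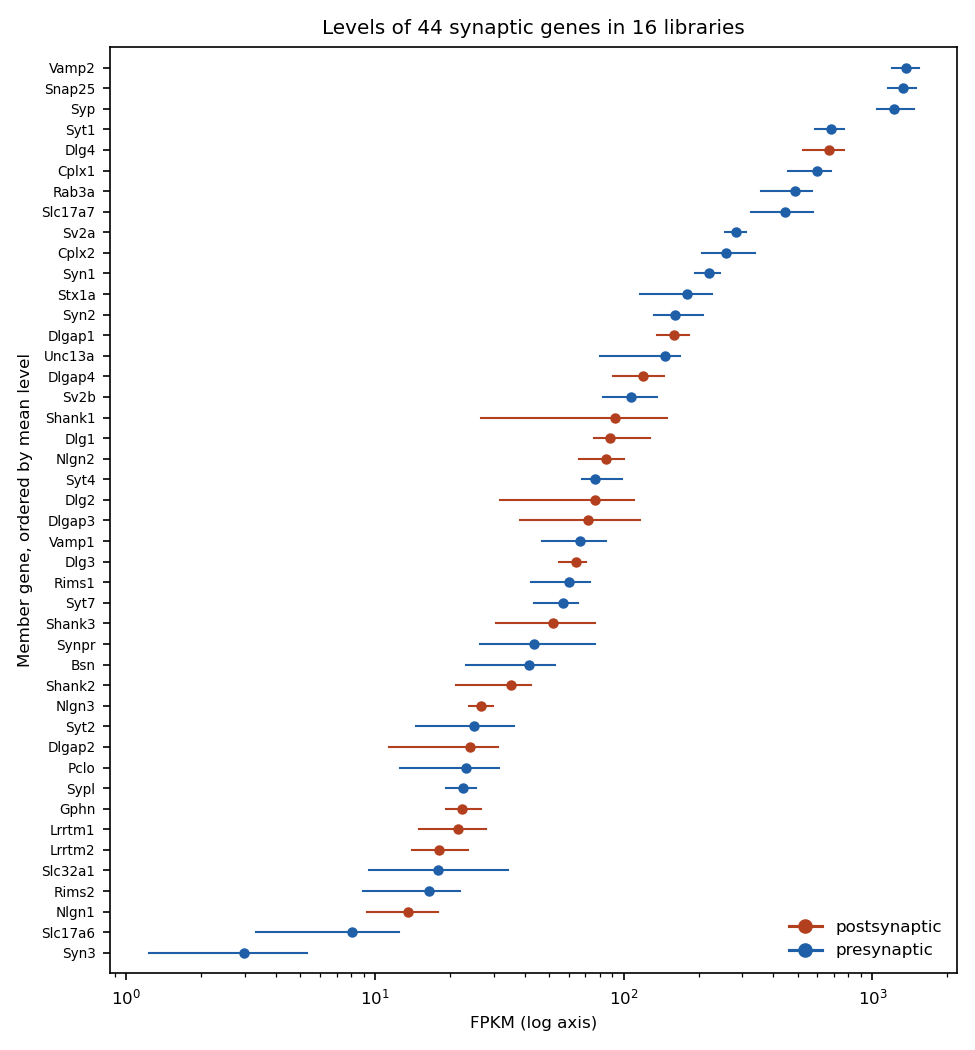
Mean FPKM of each of the 44 genes over 16 libraries (points, log axis) with the range from the lowest to the highest library (lines), ordered by level. Vamp2 lies highest at 1361 and Syn3 lowest at 2.98, and Shank1 has the widest range on the log axis, from 26.7 to 149.

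Stability across the 16 libraries also differed between members. The highest normalized count of the 16 libraries was 1.19 times the lowest for the vesicle protein gene Sv2a, 1.25 times for Syn1 and 1.29 times for Vamp2. The corresponding ratio was 5.65 for Shank1, 4.18 for Syn3, 3.81 for Slc17a6 and 3.46 for Slc32a1. The 22 more abundant members (76.4 to 1361 FPKM) had a median absolute log2 fold change of 0.095 with sleep deprivation averaged over the genotypes, and the 22 less abundant ones (2.98 to 71.8 FPKM) had 0.25. Of the 12 members (27.3%) beyond 0.3 in either direction, 9 were among the less abundant ones. Over all genes tested 20.5% lay beyond 0.3.

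Few of the 44 genes passed the test for a change with sleep deprivation. In wild type mice 1 of the 44 passed the test (limma on log2(normalized count + 1), Benjamini-Hochberg adjusted p below 0.05 over all genes tested), and it was Slc17a6, which rose. The share of all 14310 genes called in that comparison was 1.36%, and 0.853% rose. In knockout mice 0 of the 44 passed by limma and by edgeR, 6 had an unadjusted p below 0.05 (as did 12.3% of all genes), and limma called 0.23% of all genes. DESeq2 called 1 of the 44, Syn3, and 2.14% of all genes. Averaged over the genotypes, with 8 libraries on each side, 5 of the 44 passed: Slc17a6 rose, and Syn3, Sv2b, Nlgn1 and Dlgap2 fell. In that comparison 10% of all genes passed, 5.12% higher and 4.88% lower, so the 5 of 44 lay near the share of genes in general.

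The fold changes of the 44 genes leaned to lower values after sleep deprivation in both genotypes. In wild type 30 of the 44 were lower on average, where 50.2% of all genes were, and in knockout 34 were lower, where 50.3% of all genes were. The wild type and knockout comparisons share no library. In 38 of the 44 genes (86.4%) the direction was the same in both, and 29 (65.9%) were lower in both. Over all genes the direction matched in 78.2% and 39.3% were lower in both. When a trend of each library on gene length was removed, 29 of the 44 were lower in wild type and 26 in knockout.

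Post- and presynaptic genes shifted by about the same small amount. In wild type the median log2 fold change was -0.098 for the 17 postsynaptic genes, 12 of them lower, and -0.093 for the 27 presynaptic genes, 18 of them lower, against -0.0013 over all genes. In knockout the medians were -0.063 for postsynaptic genes, with 14 lower, and -0.066 for presynaptic genes, with 20 lower, against -0.0021 over all genes. Averaged over genotypes they were -0.075 and -0.077. Leaving out single libraries moved these medians: in wild type the postsynaptic median was -0.053 without WT_BL 3, and the presynaptic one -0.052 without WT_SD 1 and -0.17 without WT_SD 4. In knockout the postsynaptic median lay between -0.14 (without KO_SD 2) and -0.078, and was -0.13 without KO_BL 1, -0.11 without KO_BL 2 and -0.13 without KO_SD 1. The presynaptic one was -0.11 without KO_BL 1, -0.11 without KO_BL 2, -0.12 without KO_SD 2, -0.12 without KO_SD 3 and -0.040 without KO_SD 4. Averaged over genotypes, the presynaptic median was -0.13 without WT_SD 4. All of these stayed below 0.

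**Figure D2:**
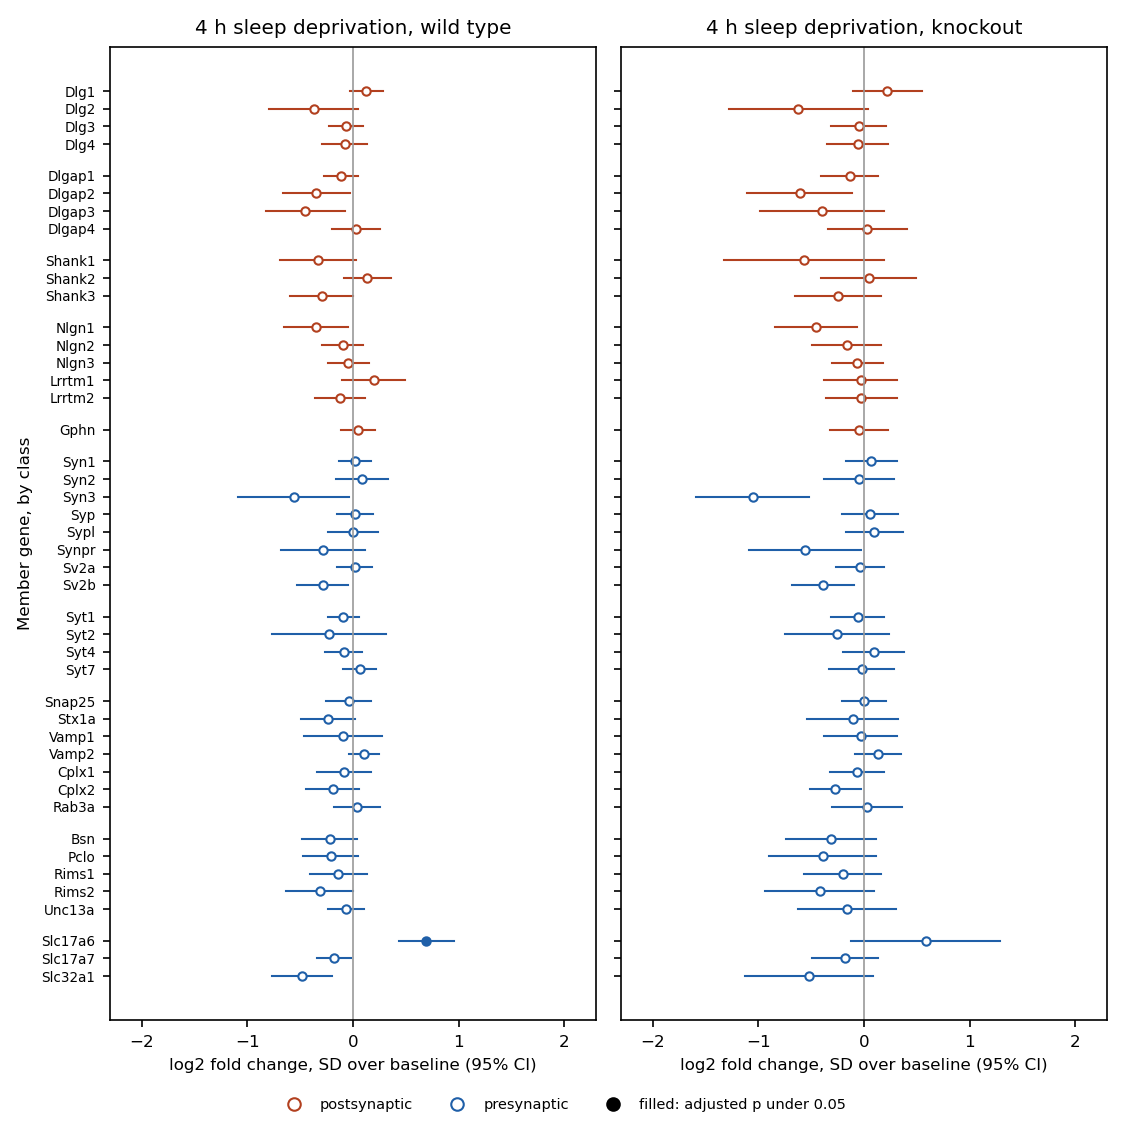
Log2 fold change of sleep deprivation over baseline with its 95% confidence interval for the 44 genes, grouped by class, in wild type (left) and knockout (right), 4 against 4 libraries each; filled points passed an adjusted p of 0.05. Slc17a6 in wild type, at 0.69, is the only filled point, and most intervals include 0.

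The vesicular transporters moved in different directions. Slc17a6 encodes the vesicular glutamate transporter typical of thalamic and other subcortical projection neurons, Slc17a7 the one typical of cortical pyramidal neurons, and Slc32a1 the transporter that fills inhibitory vesicles with GABA and glycine. In wild type mice Slc17a6 rose with sleep deprivation while Slc17a7 and Slc32a1 had lower means. On the FPKM scale Slc17a6 made up 1.14% ± 0.171 of the summed level of the 2 glutamate transporters in WT_BL and 2.05% ± 0.116 in WT_SD (SD, n = 4), and 1.67% ± 0.861 in KO_BL and 2.57% ± 0.931 in KO_SD.

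The normalized counts of Slc17a6 were 415.3, 513.6, 557.6 and 381.7 in WT_BL (libraries in replicate order, here and in all later lists) and 749.1, 720.9, 783.6 and 736.1 in WT_SD. Every sleep-deprived wild type library was above every baseline one, and the WT_SD libraries lay within a narrow band (747 ± 26.7, against 467 ± 82.3 in WT_BL; SD, n = 4). On the log2 scale Slc17a6 rose by 0.69 ± 0.12 (SE; 95% confidence interval 0.43 to 0.95; limma adjusted p = 0.0187). The call was lost without WT_BL 1 (0.64, adjusted p = 0.0551) and without WT_SD 3 (0.67, adjusted p = 0.0835), and the fold change stayed between 0.60 and 0.78 whichever library was left out. In the authors' deposited table the false discovery rate of Slc17a6 in this comparison was 3.76e-05.

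In knockout mice the counts of Slc17a6 were 701.6, 917.8, 588.2 and 280.2 in KO_BL and 1067, 749.7, 636.7 and 1052 in KO_SD. The groups overlapped, since KO_BL 2 was above 2 of the KO_SD libraries, and KO_BL 4 was the lowest of all 16 libraries. The log2 fold change was 0.58 ± 0.32 (limma adjusted p = 0.484). The difference between the genotypes in this response was -0.11 (95% confidence interval -0.90 to 0.68, limma adjusted p = 1). Averaged over the genotypes the change was 0.64 ± 0.19 (limma adjusted p = 0.0395), and this call was lost without any 1 of 11 libraries, WT_BL 1 to 4, WT_SD 1 to 4, KO_BL 3, KO_SD 1 and KO_SD 4 (adjusted p between 0.0513 and 0.0781).

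Slc32a1 had the smallest p among the presynaptic members that fell short of the threshold in wild type. Its counts were 1095, 1145, 1290 and 958.2 in WT_BL and 634.5, 968, 794.5 and 826.8 in WT_SD, so that the groups overlapped only through WT_BL 4 and WT_SD 2. The log2 fold change was -0.49 ± 0.13 (limma adjusted p = 0.0927), and DESeq2 on recovered reads gave an adjusted p of 0.0223. In the authors' deposited table its false discovery rate was also 0.0223. In knockout the counts were 708.3, 1821, 1003 and 1187 in KO_BL and 526.6, 918.8, 966.9 and 765.6 in KO_SD, with KO_BL 2 far above the rest, and the change was -0.52 ± 0.28 (limma adjusted p = 0.462). Averaged over genotypes it was -0.50 ± 0.17 (limma adjusted p = 0.0603), and the limma adjusted p was 0.0188 without KO_BL 1. Slc32a1 also passed in the average by DESeq2, with the GC trend removed, and without KO_BL 1, KO_SD 1 and KO_SD 4 together. With the replicate number as a block it passed too, with or without the length trend removed. The other alternatives on all libraries did not call it.

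Slc17a7, one of the most abundant members, had 26910, 26400, 29880 and 27110 normalized counts in WT_BL and 23310, 25590, 24810 and 23640 in WT_SD. The groups did not overlap, but the difference of -0.18 ± 0.072 on the log2 scale did not pass the test (limma adjusted p = 0.227). In wild type 4 of the 44 genes had groups that did not overlap (Slc17a6, Slc17a7, Dlg1 and Vamp2), as did 10.3% of all genes. In knockout Slc17a7 had 24400, 23040, 25810 and 32950 in KO_BL and 18980, 25380, 25750 and 23380 in KO_SD, again a difference of -0.18 (SE 0.14, limma adjusted p = 0.619).

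Genes that mark neighbouring brain regions were also compared between the sleep-deprived and the baseline cortex libraries. Of 12 striatal markers 11 were tested, and all 11 were lower in WT_SD (median log2 fold change -1.2, 1 called) and all 11 lower in KO_SD (median -0.84, 0 called). In the average over genotypes all 12 were tested and lower, and 7 were called, against 4.88% of all genes called lower. Their summed normalized count ran from 6171 to 25597 in WT_BL, 4833 to 7345 in WT_SD, 6624 to 20063 in KO_BL and 5442 to 12635 in KO_SD. Among these markers Isl1 was at 0 in 4 libraries and the other 11 in none. Slc32a1, which striatal neurons also express, had 1821 counts in KO_BL 2, at a striatal sum of 20063. It had 1095 in WT_BL 1, at the highest sum of 25597, 1145 in WT_BL 2, at 8077, and 1003 in KO_BL 3, at 6624. In WT_BL 3 it had 1290, at 16340, and in KO_BL 4 it had 1187, at 15397. It had 634.5 in WT_SD 1, at 5368, 968 in WT_SD 2, at 6256, and 794.5 in WT_SD 3, at 4833. KO_SD 1 had 526.6, at 5720. Other libraries went another way: KO_BL 1 had 708.3, at 12806, and WT_BL 4 had 958.2, at 6171. KO_SD 3 had 966.9, at 12635, and KO_SD 4 had 765.6, at 9442. The sums were 7345 in WT_SD 4 and 5442 in KO_SD 2, whose Slc32a1 counts are given above. The relation was not tested.

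Of 8 thalamic markers, 5 of the 7 tested were higher in WT_SD (median 0.13) and 3 of 7 in KO_SD (median -0.43), with 0 called by limma in either. The summed count of these markers was 682 to 847 in WT_BL, 758 to 1017 in WT_SD, 686 to 1275 in KO_BL and 610 to 1053 in KO_SD, and Gbx2 was at 0 in 7 libraries. Hippocampal markers were higher in 13 of 13 in WT_SD (median 0.56) and in 11 of 12 tested in KO_SD (median 0.48). By limma 0 were called in either genotype and 3 in the average, where 10% of all genes were called. Over all genes 49.8% were higher in WT_SD and 49.7% in KO_SD. Of 10 inhibitory neuron markers 6 were lower in WT_SD (median -0.025) and 7 in KO_SD (median -0.17). The only inhibitory marker called by limma in wild type was higher, and 0 were called in knockout. Of 9 excitatory neuron markers 7 were lower in each (medians -0.12 and -0.088), with 0 called in either. Astrocyte markers were higher in 9 of 9 in WT_SD (median 0.18, 1 called) and 5 of 9 in KO_SD (0 called). Oligodendrocyte markers were higher in 7 of 8 and 8 of 8 (medians 0.23 and 0.38, 0 called in either). All 5 blood markers were lower in both (medians -0.77 and -0.97), with 1 called in wild type and 0 in knockout. Over all genes 1.36% were called in wild type and 0.23% in knockout. The part of these shifts in the values of the synaptic genes was not tested, and in bulk cortex fewer cells of a type and less RNA per cell cannot be told apart.

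**Figure D3:**
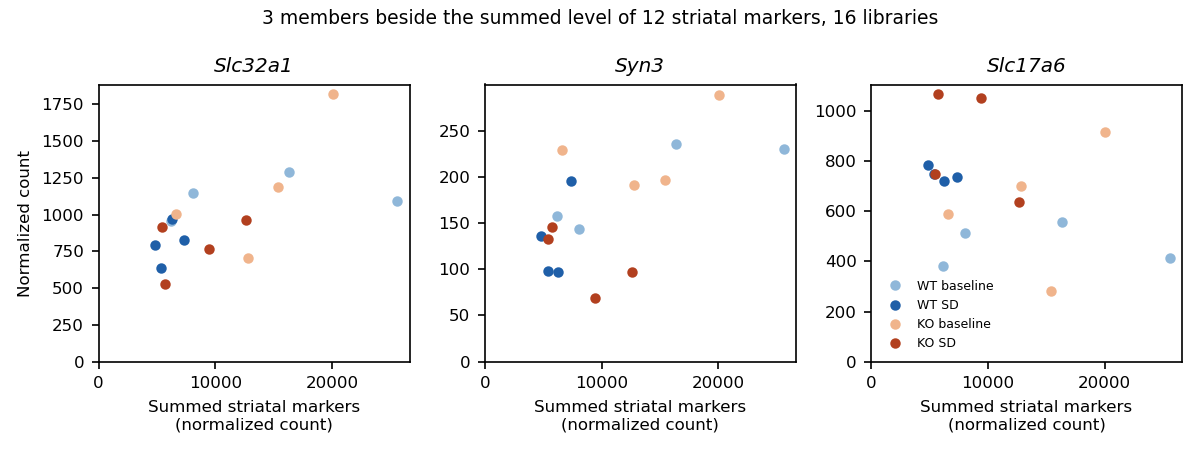
Normalized counts of Slc32a1, Syn3 and Slc17a6 (vertical axes) against the summed normalized count of 12 striatal marker genes (horizontal axes), 1 point per library, coloured by group. WT_BL 1 has the highest striatal sum, 25597, and the WT_SD libraries lie between 4833 and 7345 with Slc17a6 above 720.

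The 3 members called in the average over genotypes for which a promoter was listed are shown because they rose (Slc17a6) or fell (Sv2b, Nlgn1) across the same libraries. The 250 bases before the annotated start farthest upstream are given 5′ to 3′ on the gene's strand, from RefSeq on GRCm38.p6, in lower case with motif matches in capitals. Slc17a6 is at chr7:51621580-51621829 on the plus strand, Sv2b at chr7:75309263-75309512 and Nlgn1 at chr3:26331910-26332159, both on the minus strand.
Slc17a6: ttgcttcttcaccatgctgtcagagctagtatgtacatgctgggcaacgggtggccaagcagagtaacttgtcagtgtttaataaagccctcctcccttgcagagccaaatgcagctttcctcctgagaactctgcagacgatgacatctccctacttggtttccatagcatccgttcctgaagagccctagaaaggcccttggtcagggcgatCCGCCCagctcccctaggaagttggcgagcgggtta
Sv2b: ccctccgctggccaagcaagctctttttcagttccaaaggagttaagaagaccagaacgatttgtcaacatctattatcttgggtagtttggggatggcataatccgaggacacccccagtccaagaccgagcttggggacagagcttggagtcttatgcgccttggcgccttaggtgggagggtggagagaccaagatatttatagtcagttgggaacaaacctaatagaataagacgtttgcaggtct
Nlgn1: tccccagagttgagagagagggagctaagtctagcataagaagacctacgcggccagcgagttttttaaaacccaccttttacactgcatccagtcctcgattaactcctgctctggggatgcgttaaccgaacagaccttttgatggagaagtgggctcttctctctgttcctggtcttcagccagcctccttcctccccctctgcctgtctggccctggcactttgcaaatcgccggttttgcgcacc

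Both strands of these windows were searched for the cyclic AMP response element TGACGTCA, the AP-1 site TGANTCA, the E-box CACGTG and the GC box GGGCGG, and matches to different motifs were allowed to share bases. The only match was a GC box on the opposite strand of the Slc17a6 window, and its first base was 36 bases before the start. Over all 32851 windows of this length the shares holding a match were 1.55% for the cyclic AMP response element, 6.75% for AP-1, 6.02% for the E-box and 32.7% for the GC box. Of the 44 members 33 had an entry, with 53 windows, and the shares of these windows with a match were 1.89% for the cyclic AMP response element, 3.77% for AP-1, 7.55% for the E-box and 49.1% for the GC box. Some genes have several windows.

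Among the 8 genes of the vesicle membrane and the synapsins, 2 fell in the average over genotypes and the other 6 did not pass the test. Syn3 encodes a synapsin, a protein that coats vesicles and holds them in the reserve pool, best known from immature neurons. Its counts were 230.6, 143.2, 236 and 157.2 in WT_BL and 98.63, 96.88, 136.5 and 196 in WT_SD, and 191.5, 288.9, 228.8 and 196.6 in KO_BL and 145.8, 133.1, 97.36 and 69.15 in KO_SD. The knockout groups did not overlap, the only such case among the 44 genes in knockout, where 8.23% of all genes had separate groups. The wild type groups overlapped through WT_SD 4, which was above WT_BL 2 and WT_BL 4.

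The log2 fold change of Syn3 was -0.81 ± 0.18 in the average (95% confidence interval -1.20 to -0.42; limma adjusted p = 0.0124), -1.06 ± 0.24 in knockout (limma adjusted p = 0.128) and -0.56 ± 0.24 in wild type (limma adjusted p = 0.255). It passed the test in the average whichever of the 16 libraries was left out, with an adjusted p of at most 0.0321 and a fold change between -0.91 and -0.71. The difference between the genotypes was -0.49 (95% confidence interval -1.27 to 0.28; limma adjusted p = 1). In the authors' deposited table Syn3 had a false discovery rate of 0.00559 in knockout. Exons of Syn3 overlap those of Timp3, a metalloprotease inhibitor gene on the opposite strand, and the sources used here do not say whether the libraries kept the strand. Timp3 averaged 1927 counts at baseline and 2104 after sleep deprivation in wild type, and 2027 and 2050 in knockout. Its log2 fold change in the average was 0.081 ± 0.11 (limma adjusted p = 0.681). Whether reads of Timp3 entered the counts of Syn3 was not tested.

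Sv2b encodes a glycoprotein of the vesicle membrane and is a paralog of the more widely expressed Sv2a. Its counts were 12100, 11170, 14000 and 10990 in WT_BL and 10800, 8696, 8859 and 11310 in WT_SD, and 14410, 10410, 13680 and 13460 in KO_BL and 11370, 9172, 8861 and 10130 in KO_SD. In each genotype 1 library crossed over: WT_SD 4 was above 2 of the WT_BL libraries, and KO_BL 2 was below KO_SD 1. The log2 fold change was -0.34 ± 0.088 in the average (limma adjusted p = 0.0243), -0.29 ± 0.11 in wild type (limma adjusted p = 0.209) and -0.39 ± 0.13 in knockout (limma adjusted p = 0.294). The call in the average was lost without WT_BL 3, WT_SD 2, WT_SD 3 or KO_BL 3 (adjusted p at most 0.059), and when the length trend was removed (-0.22, adjusted p = 0.0931).

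Sv2a had the smallest range of the 44 genes. Its counts ran from 9404 to 10620 in WT_BL, 9174 to 10590 in WT_SD, 9561 to 10880 in KO_BL and 9208 to 10750 in KO_SD. Its log2 fold change in the average was -0.011 (95% confidence interval -0.13 to 0.11). The intervals of Sv2a and Sv2b in the average did not overlap, since that of Sv2b ran from -0.52 to -0.15. The difference between the paralogs was not tested. Syn1, Syn2, Syp and Sypl had log2 fold changes between 0.021 and 0.048 in the average, and the lowest limma adjusted p among them was 0.686. Synpr, a synaptophysin relative, was lower (-0.42 ± 0.16, limma adjusted p = 0.108) and passed without KO_SD 4 (limma adjusted p = 0.0338). It also passed without KO_BL 1, KO_SD 1 and KO_SD 4 together.

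**Figure D4:**
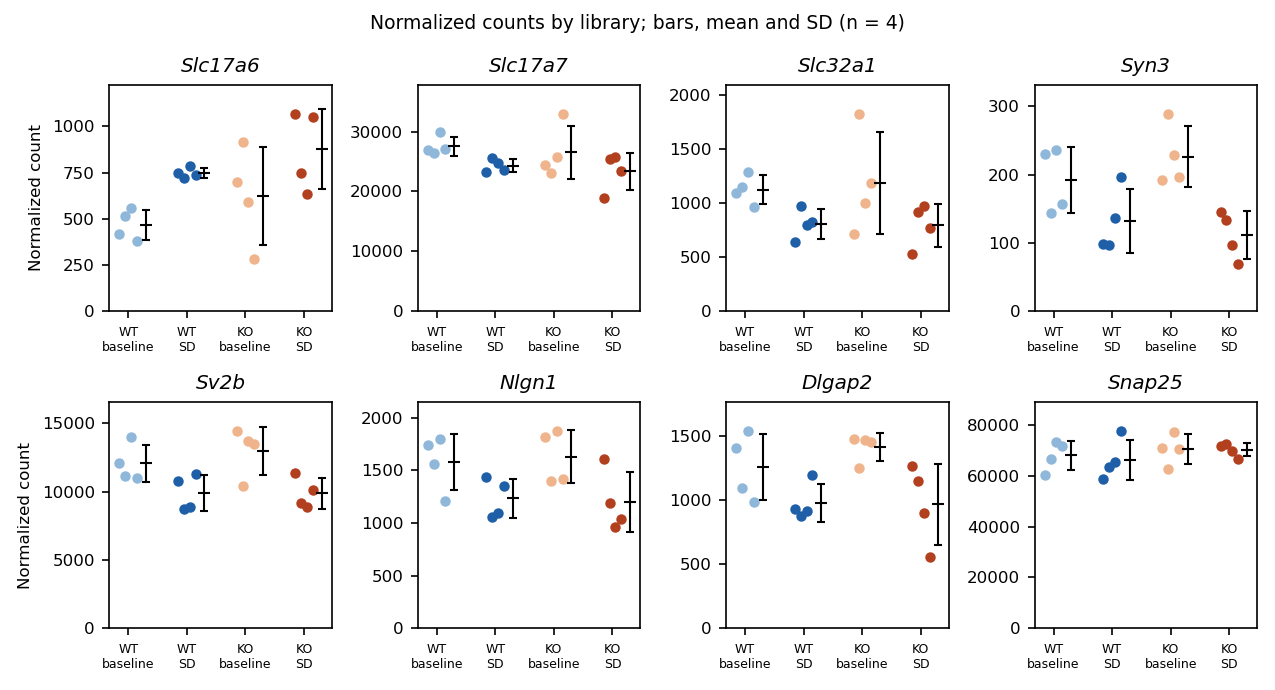
Normalized counts in every library (points) of the 3 vesicular transporters, the other 4 genes called in the average over genotypes and Snap25, with the mean and SD of each group (n = 4). Slc17a6 is above 720 in all WT_SD libraries and below 560 in all WT_BL libraries, Syn3 separates KO_SD from KO_BL, and Snap25 stays between 58600 and 77450.

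The SNARE proteins and complexins carry out fusion, and none of their genes passed the limma test with sleep deprivation on all libraries. For Snap25 the log2 fold change was -0.041 ± 0.098 in wild type and -0.0010 ± 0.096 in knockout, with counts from 58600 to 77450 in all 16 libraries. Vamp2, its partner on the vesicle, had 27400, 25730, 27510 and 27480 in WT_BL and 29550, 29940, 28650 and 28100 in WT_SD. All 4 WT_SD values were above all 4 WT_BL values, yet the difference was small (0.10 ± 0.066, limma adjusted p = 0.435). Stx1a, which completes this SNARE complex, had lower means (-0.24 ± 0.12 in wild type, limma adjusted p = 0.322). Syt1, the calcium sensor of fast release, changed by -0.093 ± 0.068 in wild type and -0.061 ± 0.11 in knockout.

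The complexins clamp and trigger the SNARE complex. Cplx2, the form typical of excitatory neurons, had 30170, 22150, 33000 and 25740 counts in WT_BL, 23060, 23870, 22970 and 26230 in WT_SD, 21690, 27600, 26610 and 27140 in KO_BL and 20170, 23360, 20430 and 21190 in KO_SD. The groups overlapped in both genotypes. Its log2 fold change was -0.23 ± 0.081 in the average (limma adjusted p = 0.0755), and it passed without WT_BL 2 (adjusted p = 0.0277) or KO_BL 1 (0.04). DESeq2 also called Cplx2 in the average (adjusted p = 0.0369), as did limma with the GC trend removed (adjusted p = 0.0368).

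Syt2 and Syt4 belong to the same family as Syt1: Syt2 is a fast calcium sensor best known from inhibitory and hindbrain synapses, and Syt4 is a form that responds weakly to calcium. Syt2 had 1221, 1518, 1187 and 1317 counts in WT_BL, 775.7, 913, 1098 and 1990 in WT_SD, 1613, 1638, 1816 and 1200 in KO_BL and 1813, 1420, 1328 and 828.6 in KO_SD. WT_SD held both the lowest and the highest of the 16 values, and the log2 fold change in wild type was -0.23 ± 0.24 (limma adjusted p = 0.672). Syt4 had 5502, 6232, 5467 and 5782 in WT_BL, 5935, 5158, 5188 and 5320 in WT_SD, 6167, 5157, 6002 and 5968 in KO_BL and 7592, 5704, 5290 and 6384 in KO_SD, with the sleep-deprived and baseline groups overlapping in both genotypes. Syt7, a slower calcium sensor, changed by 0.062 ± 0.070 in wild type and -0.023 ± 0.14 in knockout.

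The 5 active zone genes encode the scaffold on which vesicles are docked and primed: Bsn and Pclo are its largest proteins, Rims1 and Rims2 link vesicles to calcium channels, and Unc13a primes vesicles for fusion. All 5 had lower means after sleep deprivation in each genotype, with a median log2 fold change of -0.21 in wild type and -0.31 in knockout, and 0 of the 5 passed the test. In the same comparisons 50.2% and 50.3% of all genes had lower means. Without KO_SD 4 the knockout median was -0.11, with 4 of the 5 lower. When the length trend was removed the medians were -0.094 in wild type and -0.084 in knockout, with all 5 lower. These transcripts include the longest of the 44, at 11700 bases for Bsn and 15200 for Pclo against a median of 2860 for presynaptic members. KO_SD 4 was the library with the lowest value of all 5. Over all genes, its log2 deviation from the mean of the 16 libraries fell with transcript length (Spearman rho -0.489). The part of this in the result was not tested beyond the length-adjusted values above.

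Rims2 had 1680, 1495, 1757 and 1369 counts in WT_BL and 1250, 1085, 1068 and 1730 in WT_SD. WT_SD 4 lay near the top of the baseline range while the other 3 sleep-deprived libraries were below every baseline library. Rims2 changed by -0.32 ± 0.15 (limma adjusted p = 0.289), and without WT_SD 4 it passed the test (-0.47, adjusted p = 0.0385). In knockout Rims2 had 1933, 1696, 2030 and 1562 in KO_BL and 2048, 1556, 1216 and 834.8 in KO_SD, spanning the highest and the lowest of all 16 values within KO_SD. Pclo had a similar spread, with 7663, 6928, 6893 and 6574 in WT_BL, 6603, 4911, 5523 and 7473 in WT_SD, 8849, 7226, 7983 and 7744 in KO_BL and 9551, 6412, 5796 and 3764 in KO_SD. Its log2 fold change in the average was -0.30 ± 0.14 (limma adjusted p = 0.175). Without KO_SD 1, the highest library, Pclo (adjusted p = 0.0203) and Rims2 (adjusted p = 0.0228) passed in the average.

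**Figure D5:**
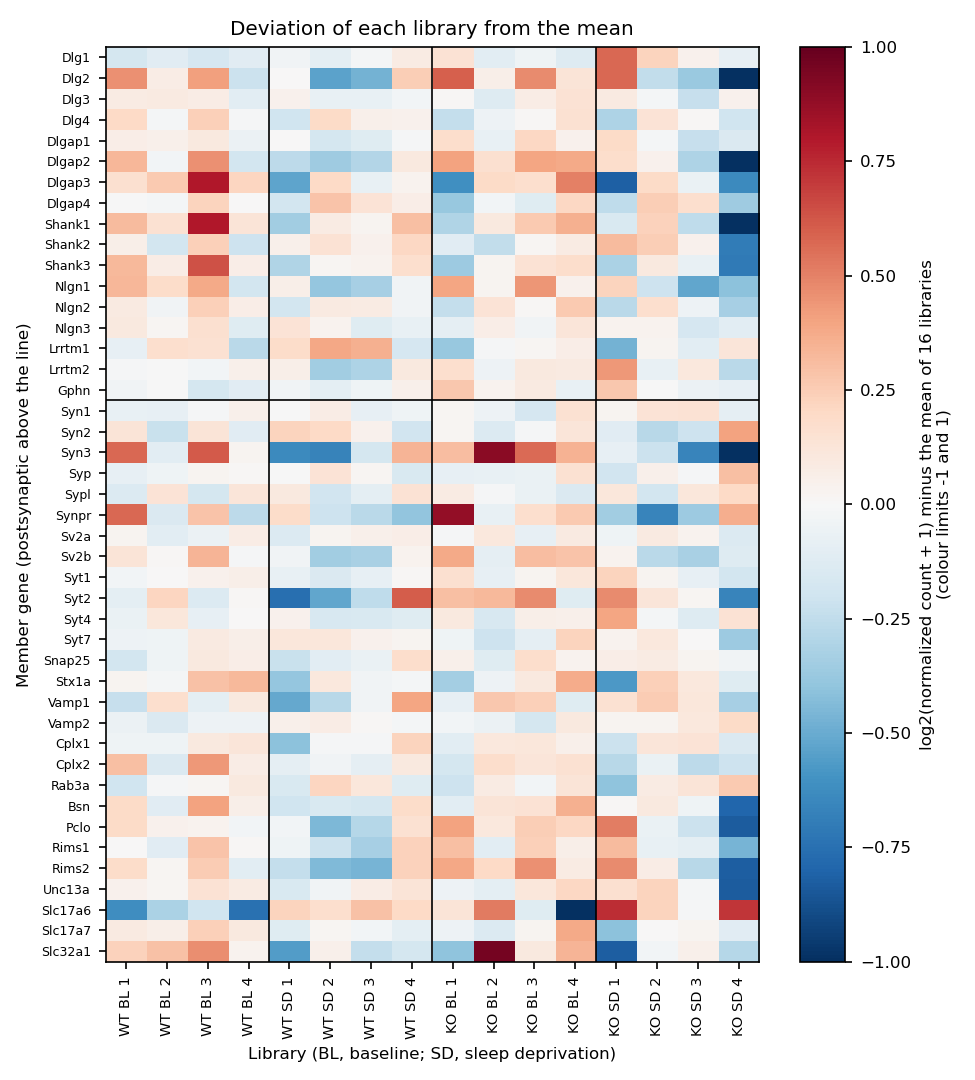
Deviation of each library from the mean of 16 libraries on the log2(normalized count + 1) scale (colour, limited to -1 and 1) for the 17 postsynaptic genes above the horizontal line and the 27 presynaptic genes below it. KO_SD 4 is the lowest library for all 5 active zone genes and for 6 postsynaptic genes, and its median deviation is -0.34 over postsynaptic and -0.14 over presynaptic genes.

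On the postsynaptic side, members of the same scaffold family moved unequally. Of the 4 membrane-associated guanylate kinases, which anchor glutamate receptors, Dlg4 and Dlg3 changed by less than 0.1 in either genotype. Dlg2 had 6066, 4643, 5845 and 3807 counts in WT_BL, 4409, 3041, 3185 and 5216 in WT_SD, 6671, 4592, 6110 and 4833 in KO_BL and 6551, 3720, 3404 and 1946 in KO_SD. The groups overlapped in both genotypes. Dlg2 changed by -0.37 ± 0.19 in wild type and -0.62 ± 0.30 in knockout (limma adjusted p = 0.342 and 0.426), and in the average it passed the test only without KO_SD 1 (adjusted p = 0.0159, against 0.111 with all libraries).

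Dlg1, which also traffics receptors to the membrane, had higher means after sleep deprivation. Its counts were 3546, 3713, 3574 and 3707 in WT_BL and 3919, 3760, 3961 and 4256 in WT_SD, with every sleep-deprived library above every baseline one. The difference was small and did not pass the test (0.13 ± 0.070, limma adjusted p = 0.367). In knockout the counts were 4443, 3726, 3905 and 3675 in KO_BL and 5988, 4685, 4125 and 3795 in KO_SD, and the groups overlapped. In the average over genotypes Dlg1 did not pass the limma test on all libraries. It passed there with the GC trend removed, and without KO_BL 1, KO_SD 1 and KO_SD 4 together.

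The SAPAP proteins link the guanylate kinases to the Shank layer. Dlgap2 fell in the average over genotypes (-0.48 ± 0.14, 95% confidence interval -0.79 to -0.17, limma adjusted p = 0.046). Its counts were 1405, 1098, 1537 and 983.5 in WT_BL and 931.7, 875.2, 912.3 and 1198 in WT_SD, and 1477, 1248, 1472 and 1455 in KO_BL and 1266, 1151, 900.8 and 553.2 in KO_SD. WT_SD 4 lay among the baseline values, as KO_SD 1 did in knockout, and KO_SD 4 was the lowest of the 16. The call was lost without any 1 of 11 libraries (WT_BL 1 to 3, WT_SD 1 to 3, KO_BL 1 to 4 and KO_SD 3), with a limma adjusted p between 0.0546 and 0.101. On all libraries it was also lost with the GC trend removed, with no filter, and without the variance trend and robust step.

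Dlgap3, best known from the striatum, had 4274, 4583, 6643 and 4422 counts in WT_BL, 2642, 4383, 3618 and 3920 in WT_SD, 2499, 4371, 4291 and 5424 in KO_BL and 2172, 4356, 3644 and 2456 in KO_SD. WT_BL 3 was the highest library, and the wild type groups overlapped through WT_BL 1 and WT_SD 2. Dlgap3 changed by -0.45 ± 0.17 in wild type and -0.40 ± 0.27 in knockout (limma adjusted p = 0.203 and 0.563). In the average it passed without KO_BL 1 (limma adjusted p = 0.0405) and with the GC trend removed. It also passed with the replicate number as a block, with or without the length trend removed. Dlgap1 and Dlgap4 changed by -0.11 ± 0.073 and 0.027 ± 0.10 in wild type.

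The Shank proteins form the deepest scaffold layer. Shank1 had 7104, 6329, 9933 and 6234 counts in WT_BL, 4493, 6043, 5800 and 7027 in WT_SD, 4635, 6102, 6835 and 7300 in KO_BL and 5141, 6697, 4796 and 1757 in KO_SD. The highest value, in WT_BL 3, and the lowest, in KO_SD 4, set the widest range of the 44 genes, and the groups overlapped in both genotypes. Its log2 fold change was -0.33 ± 0.16 in wild type and -0.57 ± 0.35 in knockout (limma adjusted p = 0.32 and 0.524). Shank3 had 3946, 3314, 4884 and 3291 in WT_BL, 2550, 3188, 3223 and 3535 in WT_SD, 2452, 3207, 3470 and 3550 in KO_BL and 2532, 3369, 2986 and 1923 in KO_SD, and Shank3 changed by -0.30 ± 0.14 in wild type (limma adjusted p = 0.29). Shank2 had means in the other direction (0.13 ± 0.10 in wild type, 0.044 ± 0.20 in knockout).

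Among the adhesion proteins Nlgn1, the neuroligin of excitatory synapses, fell in the average over genotypes (-0.40 ± 0.12, 95% confidence interval -0.65 to -0.15, limma adjusted p = 0.0399). Its counts were 1739, 1563, 1797 and 1212 in WT_BL, 1436, 1056, 1095 and 1347 in WT_SD, 1817, 1403, 1870 and 1420 in KO_BL and 1606, 1193, 963.5 and 1035 in KO_SD. WT_BL 4 lay within the sleep-deprived range, and KO_SD 1 within the baseline range. The call was lost without any 1 of 10 libraries (WT_BL 1 to 3, WT_SD 2 and 3, KO_BL 1 and 3, KO_SD 2 to 4; adjusted p between 0.0512 and 0.089). Nlgn2, the neuroligin of inhibitory synapses, and Nlgn3 changed by -0.13 ± 0.087 and -0.054 ± 0.065 in the average and did not pass.

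Lrrtm1, a neurexin-binding adhesion protein, had 858.9, 1022, 1011 and 751.2 counts in WT_BL, 1032, 1190, 1159 and 809.7 in WT_SD, 697.1, 899.6, 922.3 and 951.5 in KO_BL and 653.6, 923.3, 843.8 and 986.6 in KO_SD. The groups overlapped in both genotypes, and the log2 fold change was 0.20 ± 0.14 in wild type and -0.033 ± 0.16 in knockout. Gphn encodes gephyrin, the scaffold of inhibitory synapses. It had 1393, 1426, 1268 and 1322 in WT_BL, 1394, 1332, 1387 and 1483 in WT_SD, 1719, 1467, 1520 and 1358 in KO_BL and 1723, 1425, 1374 and 1352 in KO_SD, and its log2 fold change in the average was 0.00090 ± 0.068.

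Between the genotypes 0 of the 44 genes passed the test at baseline and 0 after sleep deprivation by limma, edgeR and DESeq2, and 0 of the 44 had an unadjusted p below 0.05 in either, where 2.75% and 1.62% of all genes did. Over all genes limma called 0.0139% at baseline, and 0% after sleep deprivation, where 232 genes had an unadjusted p below 0.05 and edgeR and DESeq2 called 0 each. At baseline the median log2 fold change, knockout over wild type, was -0.025 for postsynaptic genes, 7 higher and 10 lower, and 0.019 for presynaptic genes, 19 higher and 8 lower, against 0.0030 over all genes, of which 49.1% were lower. The postsynaptic median turned to 0.016 without WT_BL 3, 0.010 without KO_BL 1 and 0.018 without KO_BL 2, and the presynaptic one ranged from 0.0060 to 0.045 when a library was left out. The smallest unadjusted p at baseline belonged to Pclo (0.18 ± 0.083, limma adjusted p = 0.982). Syt2 (0.25 ± 0.13), Gphn (0.16 ± 0.087) and Rims2 (0.20 ± 0.11) had higher and Shank3 (-0.28 ± 0.15) lower means in knockout, all with an adjusted p of 0.982.

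After sleep deprivation 12 of the 17 postsynaptic genes had lower means in knockout, as did 50.7% of all genes, with a median of -0.11, and the presynaptic median was 0.00021. Without KO_SD 4 the postsynaptic median was -0.020, without KO_SD 2 it was -0.18, and leaving out KO_SD 1, KO_SD 2, KO_SD 3 or any WT_SD library kept it below 0. Without KO_SD 1 and KO_SD 4 together it was 0.032. The smallest unadjusted p values belonged to Cplx2 (-0.18 ± 0.097), Lrrtm1 (-0.30 ± 0.17) and Syt4 (0.20 ± 0.13), each with a limma adjusted p of 1. The response to sleep deprivation differed between genotypes for 0 of the 44 genes, and for 0% of all genes, of which 160 (1.1%) had an unadjusted p below 0.05, edgeR called 0 and DESeq2 1. Averaged over the sleep conditions the genotypes differed by limma for 0 of the 44 genes and 0% of all genes, where 457 (3.13%) had an unadjusted p below 0.05, edgeR called 0 and DESeq2 6. The median interaction was -0.025 for postsynaptic and -0.040 for presynaptic genes, and neither sign was stable. The postsynaptic one was 0.016 without WT_BL 4, 0.0060 without KO_BL 4 and 0.043 without KO_SD 4, and the presynaptic one 0.048 without KO_SD 4.

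Other genes of the same synaptic compartments were taken from lists of 29 postsynaptic and 68 presynaptic genes that hold none of the 44. In wild type 2 of them passed, both postsynaptic, where 1.36% of all genes did: Homer1, a scaffold that binds metabotropic glutamate receptors and has an activity-induced short form, rose, and Slitrk1, an adhesion protein, fell. Homer1 went from 3505 ± 352 counts in WT_BL to 7951 ± 391 in WT_SD and from 4523 ± 1280 in KO_BL to 10494 ± 4186 in KO_SD (SD, n = 4). Its log2 fold change was 1.19 ± 0.086 in wild type (limma adjusted p = 0.000219) and 1.18 in knockout (limma adjusted p = 0.119). Slitrk1 went from 2290 ± 208 to 1626 ± 162 in wild type, or by -0.49 ± 0.095 on the log2 scale (limma adjusted p = 0.032).

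In the average over genotypes 4 of the other postsynaptic genes passed, 1 higher and 3 lower, and 6 of the presynaptic ones, 2 higher and 4 lower, where 10% of all genes passed. The 6 with the smallest p were Homer1 and Stx4a, which rose, and Slitrk1, Slitrk5, Syt10 and Erc2, which fell. Erc2, an active zone scaffold that binds Rims proteins, fell by 0.39 on the log2 scale, and Syt10 fell by 1.09. The wild type medians of these lists were -0.12 for postsynaptic genes, 18 of them lower, and -0.054 for presynaptic genes, 43 lower. Each of these medians was below that of all genes, -0.0013.

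Exons of 21 of the 44 genes overlap those of another gene in GENCODE M21, and for 7 of them (Lrrtm2, Rab3a, Shank1, Syn1, Syn2, Syn3 and Unc13a) the other gene is protein-coding and on the opposite strand. Among the genes called, Nlgn1 and Sv2b overlap non-coding genes. The sources used here do not say how reads in these exons were assigned.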

How the data were processed

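RNA of 16 mouse cortex samples was, per the labels' protocols, run on a HiSeq2500. Per the submitters' processing notes, RSEM 1.2.19, edgeR and the mm10 build were used; no source used here gives strandedness or the annotation release. The deposited sheets hold a normalized count signal per gene and library, made by the authors with scaling within each sheet, and FPKM. They also hold the authors' transcript width (another quantity, in bases), the deposited GC content as a fraction, and the authors' log2 ratio and p-values with false discovery rates, where the ratio is the first-named group over the second. In every library 100% of low normalized counts, up to 20 reads, were whole multiples of 1 read within 0.1 read, so read counts were recovered; they gave 8763833 to 30504917 reads per library.

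Genes that reached 10 normalized counts in 4 or more libraries were tested on log2(normalized count + 1), with pseudocount 1, by limma 3.58.1 (R 4.3.3; variance trend on the mean, robust), two-sided, within each sheet. Fold changes are on that scale and understate changes of low genes. Benjamini-Hochberg adjustment ran over all genes tested, at 0.05, in 7 comparisons. No groups were redefined, and no 2 libraries agreed within sampling noise (smallest chi-square per degree of freedom 7.94). The limma and edgeR fits were run on simulated counts with known changes. Those counts lacked the GC and length trends of these libraries, so they do not give error rates here. Alternatives were edgeR 4.0.16 and DESeq2 1.42.0 on recovered reads, other pseudocounts and filters, GC and length trends removed, the replicate number as a block and leaving out libraries. Genes given with every library were those called in any comparison and, in the 4 pairwise comparisons and the average over genotypes, the 3 postsynaptic and 3 presynaptic members with the smallest p; of other synaptic genes, those called, at most 6 per comparison. The members and lists were chosen with earlier results of these data known.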

Additional observations from a re-analysis of the deposited data

Results flagged for a closer look

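In 8 of the 176 groups of 4 libraries, 1 library lay apart from the other 3 by Dixon's test, and chance gives about 1 in 20 groups. Among postsynaptic genes these were Dlg3, lowest in WT_BL 4 at 3994 normalized counts, and Dlgap2, lowest in KO_BL 2 at 1248. Dlgap3 was highest in WT_BL 3 at 6643, as was Dlgap4 at 6139. Among presynaptic genes, Syp was highest in KO_BL 4 at 31510, Vamp2 lowest in WT_BL 2 at 25730, Cplx2 lowest in KO_BL 1 at 21690 and Bsn highest in WT_SD 4 at 10490.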

How the results depend on the processing

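No gene named as called changed sign under the alternatives run, but some medians between the genotypes and of the interaction did. With sleep deprivation in wild type, the count of the 44 genes called (1) was 0 without the variance trend and robust step, 2 by DESeq2 (Slc17a6 and Slc32a1), and 0 to 2 when a library was left out. The presynaptic median in wild type lay between -0.166 and -0.0515 when a library was left out. In knockout the count (0) was 1 by DESeq2, 1 with the length trend removed and the replicate block (both Syn3), and 2 without KO_BL 1, KO_SD 1 and KO_SD 4 together. In the average over genotypes the count (5) was 2 with no filter and 2 without the variance trend and robust step. Both times these were Syn3 and Sv2b. The count was 8 with the GC trend removed, where Dlgap2 was lost and Dlg1, Dlgap3, Cplx2 and Slc32a1 were gained. It was 1 to 7 when a library was left out. Leaving out KO_SD 1 and KO_SD 4, libraries chosen from an earlier look at these data, gave a postsynaptic median of 0.0321 between the genotypes after sleep deprivation. The median of the interaction lay between -0.0728 and 0.0481 for presynaptic and between -0.0935 and 0.0426 for postsynaptic genes when a library was left out, and was 0.00333 and 0.00463 with the length trend removed. The postsynaptic median between genotypes at baseline lay between -0.0726 and 0.018 when a library was left out, and was 0.00795 with the GC trend removed. The presynaptic median after sleep deprivation, 0.000209, was -5.68e-05 with TMM and -0.00146 with median-of-ratios scaling. The cause of these shifts was not tested.

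Over all genes, 194 were called in wild type, 102 without the variance trend and robust step, 663 by DESeq2, 443 with the GC trend removed and 46 to 508 when a library was left out. In knockout 33 were called, 307 by DESeq2, 75 with the length trend removed, 119 with it and the block, 124 with the GC trend removed, 383 without the 3 libraries and 0 to 70 when 1 was left out. At baseline 2 genes differed between genotypes, with 3 by DESeq2 and 0 to 2 under the other alternatives. In the average 1461 were called, 2490 with the GC trend removed and 728 to 2369 when a library was left out; 748 of the 1461 were higher, against 1028 of 1703 with the length trend removed. The interaction (0) was 1 and the genotype average (0) was 6 by DESeq2, and each was 1 with a pseudocount of 5. Most replicate numbers did not pair the samples (correlations of deviations from -0.401 to 0.376). The libraries numbered 1 differed from this. They correlated positively in all 6 pairs of groups (0.166 to 0.376), and each time the best match of number 1 was number 1 of the other group. WT_BL 4 also matched KO_BL 4 best (0.291). With the replicate number as a block, 1 of the 44 genes was called in wild type, 0 in knockout and 7 in the average, and 230, 47 and 1663 of all genes.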
